A study of Mus musculus with 4 samples.

Results

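C1q-high, Ccr2-positive and Trem2-negative macrophages were a small class of myeloid cells in YUMMER1.7 mouse melanoma, 208 of the 6625 single cells kept from the whole series. They were chosen by the unique molecular identifiers (UMIs, tags that mark single RNA molecules) of a few genes. Each cell had at least 5 UMIs of Lyz2, at least 20 UMIs of C1qa, C1qb and C1qc together per 10000 UMIs, at least 1 UMI of Ccr2, none of Trem2 and none of Cd3d, Cd3e or Cd3g. Since the rule rests on measured values, the levels of these 9 genes are given as a description and were not tested. The members made up 5.54% of the 3752 Lyz2-positive cells, 8.47% in the long treatment cohort and 4.48% in the short treatment cohort. They were set beside 513 C1q-high cells with at least 1 Trem2 UMI, called Trem2+ cells here, and beside the remaining 3031 Lyz2-positive cells, called other Lyz2 cells. All but 64 of the latter had a C1q level below the limit, and those 64 were C1q-high with neither a Trem2 nor a Ccr2 UMI.

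C1q is the recognition molecule that starts the classical complement pathway, and in tissues it is made mostly by macrophages. Ccr2 is the receptor for Ccl2 and draws monocytes from blood into inflamed tissue, while Trem2 is a lipid-sensing receptor that marks a common kind of tumor macrophage. Tumor macrophages arise largely from blood monocytes, and macrophages that carry MHC class II can show peptides to CD4+ T cells. Cd74 serves both as the invariant chain of MHC class II and as the receptor for MIF, a cytokine.

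The cells came from subcutaneous YUMMER1.7 tumors, a mutagenized melanoma line, in male wild-type C57BL/6J mice of 7 to 8 weeks. Mice were given isotype antibody, anti–PD-1 at 10 mg/kg, anti-MIF at 20 mg/kg or both antibodies from day 7. The short treatment cohort had 2 doses over 1 week and was taken on day 14, and the long treatment cohort had 4 doses over 2 weeks and was taken on day 21. Cells of each arm were tagged with a hashtag antibody, sorted on CD45 and remixed before 5′ capture, with 1 library for each cohort. All mice carried the same tumor line and genotype. The animals behind a hashtag cannot be told apart, so each arm of a cohort was 1 sample and cohort and library cannot be told apart.

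The long library held 2516 barcodes and 23702910 gene UMIs, and the short library held 4987 barcodes and 31799441 gene UMIs. After the limits on genes, mitochondrial UMIs and hashtags, 2053 and 4572 cells were left, with medians of 8758 and 5909.5 UMIs. The libraries shared 20 barcodes, and no barcode was a member in both. The hashtags of 3 long arms were less well separated than the rest. With a top hashtag at 10 times the second instead of 3 times, 5 of 159 long isotype, 120 of 895 long anti-MIF and 52 of 288 long anti–PD-1/anti-MIF cells were left, but 355 of 386 long anti–PD-1 cells. In the short cohort 273 of 744 isotype and 1581 of 1714 anti–PD-1 cells were left. Of the 45 members of the long anti-MIF arm, 1 met the stricter limit. A 5th hashtag, named anti-PD1-MIF-DDT in the files, has no entry among the sample labels and entered no test. Its cells count in the totals and in the account of the rule genes, depth, edges and thinning given next, and are left out of the marker lists and of the comparisons after them, apart from values printed under its own name or as added to a fit. Without it there were 166 members, 68 in the long and 98 in the short treatment cohort.

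Among the genes of the rule, C1q was lower in the members than in the Trem2+ cells. Ccr2 was higher, but the rule asks for a Ccr2 UMI in the members and not in the Trem2+ cells. The median C1q level of the members was 66.1 UMIs per 10000 in the long cohort, with quartiles of 42.7 and 98.6, and 43.7 in the short cohort, with quartiles of 28.8 and 69.8. The Trem2+ cells had medians of 129 and 61.2. The members had a median of 5 Ccr2 UMIs per cell in the long and 4 in the short cohort, and 20.0% and 19.5% of them had a single Ccr2 UMI. The Trem2+ cells had medians of 3 and 2. Of the Trem2+ cells, 76.3% and 78.1% also had a Ccr2 UMI, as did 78.4% and 71.5% of the other Lyz2 cells. Among all C1q-high cells without a Trem2 UMI, these shares were 81.7% in the long and 73.2% in the short cohort. Among T cells they were 12.01% and 20.4%. Some T cells can express Ccr2, and the T cells had lower medians of 5074.5 and 3992 UMIs. Members had a median of 12070 UMIs in the long cohort and 8347 in the short cohort, less than the 14636 and 9492.5 of the Trem2+ cells and more than the 9738 and 6653 of the other Lyz2 cells.

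The edges of the rule were crowded. In the long and short cohorts, 8 and 36 members had a C1q level between 20 and 30 per 10000, while 15 and 35 cells that met the other terms had 10 to 20. The nearest values inside were 20.07 and 20.14 and the nearest outside 19.55 and 19.84. A single Trem2 UMI kept 42 and 51 cells out, and a missing Ccr2 UMI kept 19 and 45 out. When each cell was thinned to 3000 UMIs, the C1q, Trem2 and Ccr2 terms were applied again. The Lyz2 and Cd3 terms kept the counts at full depth, here and in the thinned shares below. Of the members, 49 of 85 long and 88 of 119 short still met the rule in this form. A further 4 short members were too shallow, and 58 and 38 Trem2+ cells came to meet the rule in this form. Which side of the Trem2 limit a cell fell on thus depended on its depth as well as on its level. T cells, which should lack C1q, had a C1q UMI in 15.9% of long and 3.82% of short cells, at medians of 5074.5 and 3992 UMIs, but their mean C1q level was 0.362 and 0.178 per 10000 and 0 of 308 long and 1 of 393 short T cells reached 20.

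The members expressed the macrophage identity genes and had few UMIs of genes of other lineages. All 6 genes of the macrophage identity list, such as Csf1r, Cd68 and Mertk, were detected, and they summed to 2088 CPM (UMIs of a gene per 1e6 UMIs of the class) in the long and 1938 in the short cohort. The Trem2+ cells had 2448 and 1841, and the other Lyz2 cells 2036 and 1597. Of the 7 dendritic cell genes, 5 were seen in the long cohort, with 15 UMIs in all, and 3 in the short cohort, with 18 UMIs. Zbtb46, Cd209a, Xcr1 and Fscn1 were at 0 in the short cohort, Xcr1 and Fscn1 were at 0 in the long cohort, and Clec9a led with 7 and 12 UMIs. A dendritic cell gene was seen in 16.2% of long and 9.18% of short members, against 5.30% and 8.38% of the Trem2+ cells and 8.85% and 5.17% of the other Lyz2 cells, and the part of these cells in the results was not tested. Neutrophil genes summed to 31.2 and 43.6 CPM, led by Csf3r with 25 and 32 UMIs, and S100a8 and S100a9 were at 0 in the long members. Of the melanoma genes, Mitf alone was seen (54 and 57 UMIs), with Mlana, Pmel, Dct, Tyrp1 and Sox10 at 0. T cell genes gave 2 and 1 UMIs, B cell genes 0 and 10, NK cell genes 1 and 10, and fibroblast genes 2 and 1. Of the plasmacytoid genes Bst2, which many cells express, was seen and Siglech was at 0, and the endothelial genes gave 24 and 32 UMIs, mostly of Pecam1.

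The 5 genes that name the class were present across arms. C1qb (chr4:136880129-136886187 in mm10) and Ccr2 (chr9:124101950-124113557) belong to the rule. C1qb ranged from 2707 CPM in the short anti-MIF arm to 4529 CPM in the long anti–PD-1/anti-MIF arm, and Ccr2 from 353 CPM in the long anti–PD-1/anti-MIF arm to 666 CPM in the short anti–PD-1/anti-MIF arm. Cd74, Aif1, a calcium-binding protein of macrophages, and Tgfbi, a secreted matrix protein, were not used. At 3000 UMIs per cell, Cd74 was seen in 98.5% of long and 98.9% of short members, Aif1 in 82.4% and 84.2%, and Tgfbi in 98.5% and 95.8%. In the other Lyz2 cells these shares were 83.5% and 67.7% for Cd74, 51.8% and 48.6% for Aif1, and 90.5% and 88.9% for Tgfbi. The Trem2+ cells lay close to the members, with 97.0% and 96.3% for Cd74, 80.9% and 74.2% for Aif1, and 98.0% and 95.7% for Tgfbi, and none of these 3 genes was called against them (median log2 fold change 0.07).

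Compared with the Trem2+ cells, the members had more RNA of the monocyte genes Ly6c2 and Plac8 and less of Apoe, Ms4a7, Adgre1, Cd63 and 3 CC chemokines, and no MHC class II gene was called different. For each class and arm the UMIs of its cells were added up, and the sums were compared with edgeR's quasi-likelihood test, with the arm as a block. The fit took the 6 arms that held at least 10 cells of both classes, which were the 4 short arms, long anti-MIF and the long combination. A gene was called when its log2 fold change passed 0.5 in either direction with an adjusted p under 0.05. Of 6122 genes tested, 6 were called higher (0.098%) and 22 lower (0.359%) in the members, and the median log2 fold change of all genes was 0.002. Values by arm follow the order isotype, anti–PD-1, anti-MIF, then the combination of both.

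Ly6c2 (chr15:75108158-75111970), a surface protein of inflammatory monocytes, stood at 1880, 1231, 1104 and 758 CPM in the long and at 1995, 1960, 2018 and 2650 CPM in the short members. In the Trem2+ cells it stood at 685, 409, 341 and 597 CPM and at 160, 1065, 1025 and 1510 CPM. Every arm was higher in the members, and the log2 fold change was 1.32 (SE 0.23, adjusted p = 0.00578, 6 of 6 fitted arms). Plac8 (chr5:100553725-100572245), another gene of monocytes, had 1391, 1491, 828 and 447 CPM in the long and 1523, 2523, 3843 and 2104 CPM in the short members, against 329, 589, 234 and 514 CPM and 505, 1527, 1344 and 1294 CPM in the Trem2+ cells. It was higher in 5 of 6 fitted arms, the exception being long anti–PD-1/anti-MIF, with a log2 fold change of 1.05 (SE 0.16, adjusted p = 0.00127). Of the 13 monocyte genes tested, these 2 were called higher and none lower, and the median log2 fold change was 0.23. Vcan, also a monocyte gene, had a fitted log2 fold change of 0.53 (adjusted p = 0.844). Ass1 (chr2:31470207-31520672), the enzyme that makes argininosuccinate from citrulline, was higher in 6 of 6 fitted arms (log2 fold change 0.89, SE 0.16, adjusted p = 0.00606). The other genes called higher included Tspan13, Ly6i and Clec4e, which were picked out after their values were seen, at log2 fold changes of 1.20, 1.02 and 0.85.

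Apoe (chr7:19696109-19699188), the lipid carrier of macrophages, had 438, 246, 1052 and 540 CPM in the long and 2043, 309, 728 and 1429 CPM in the short members. The Trem2+ cells had 2794, 4180, 4713 and 2117 CPM and 3047, 1176, 2704 and 1272 CPM, so the short anti–PD-1/anti-MIF arm went the other way. The log2 fold change was -1.44 (SE 0.20, adjusted p = 0.000469). Ms4a7 (chr19:11321039-11336146), a four-pass membrane protein of mature macrophages, had 25.8, 29.0, 214 and 41.6 CPM in the long and 56.1, 56.5, 155 and 145 CPM in the short members. In the Trem2+ cells it had 698, 918, 637 and 114 CPM and 119, 207, 207 and 275 CPM, higher in all 8 arms, with a log2 fold change of -1.38 (SE 0.18, adjusted p = 0.000469). Adgre1 (chr17:57358691-57483527), which encodes F4/80, ranged from 29.0 to 103 CPM over the arms of the members and from 89.4 to 216 CPM over those of the Trem2+ cells (log2 fold change -1.06, SE 0.19, adjusted p = 0.00621). It was the 1 of 6 macrophage identity genes called lower (median -0.06), and none of 13 macrophage transcription factor genes was called (median 0.06). Cd63, a tetraspanin of late endosomes, had a log2 fold change of -1.66 (SE 0.24, adjusted p = 0.000678).

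The chemokines called lower were Ccl12 (log2 fold change -1.81, adjusted p = 0.000469), Ccl7 (-1.76, adjusted p = 0.0262) and Ccl3 (-0.995, adjusted p = 0.0153), 3 of the 8 CC chemokines tested. Ccl12 and Ccl7 are themselves ligands of Ccr2. Mrc1, the mannose receptor, was the 1 of 8 scavenger genes called lower (-1.37, adjusted p = 0.0153), and Cx3cr1, the fractalkine receptor, the 1 of 5 chemokine receptors (-0.88, adjusted p = 0.0377). Ctsl, a lysosomal protease, had -0.81 (adjusted p = 0.00889) and was the 1 of 11 proteases called. Mt1, Zmynd15, Selenoh and Nenf were also lower in 6 of 6 fitted arms, with Mt1 at -0.71 (adjusted p = 0.0375), Zmynd15 at -1.51 (0.00145), Selenoh at -1.20 (0.0338) and Nenf at -0.96 (0.0478). Among 12 lipid-associated macrophage genes tested, Apoe and Cd63 were called lower and none higher (median -0.20). Spp1, the best known of them, had a log2 fold change of -1.09 and missed the threshold (adjusted p = 0.0517).

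Of the 9 MHC class II genes tested against the Trem2+ cells none was called, although 8 were fitted higher, with a median log2 fold change of 0.29. H2-Aa had a log2 fold change of 0.28 (SE 0.08, adjusted p = 0.101) and was higher in 6 of 6 fitted arms. None of 16 interferon-stimulated, 14 MHC class I and 11 cell cycle genes was called, with medians of 0.15, 0.15 and -0.72. No cell cycle gene was fitted higher. Mif was fitted at -0.21 on the log2 scale (adjusted p = 0.542).

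These calls against the Trem2+ cells rest on few arms. Without the long anti-MIF arm, which held 45 of the members, no gene was called, and the fitted log2 fold change was then 1.25 for Ly6c2 (adjusted p = 0.235) and -1.24 for Apoe (adjusted p = 0.110). With the short arms alone 2 genes were called, Plac8 (log2 fold change 1.098, adjusted p = 0.024) and Ccl12 (-2.08, adjusted p = 0.024), and with the long arms alone 61 were. No gene was called with a top hashtag at least 10 times the second, and none without the arm as a block. Within cells of 4000 to 15000 UMIs, a range that narrows the gap in depth, 14 genes were called. In that range Ly6c2 had 1.44 (adjusted p = 0.062), Plac8 1.34 (0.006), Apoe -1.50 (0.006) and Ms4a7 -1.54 (0.006).

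**Figure D1:**
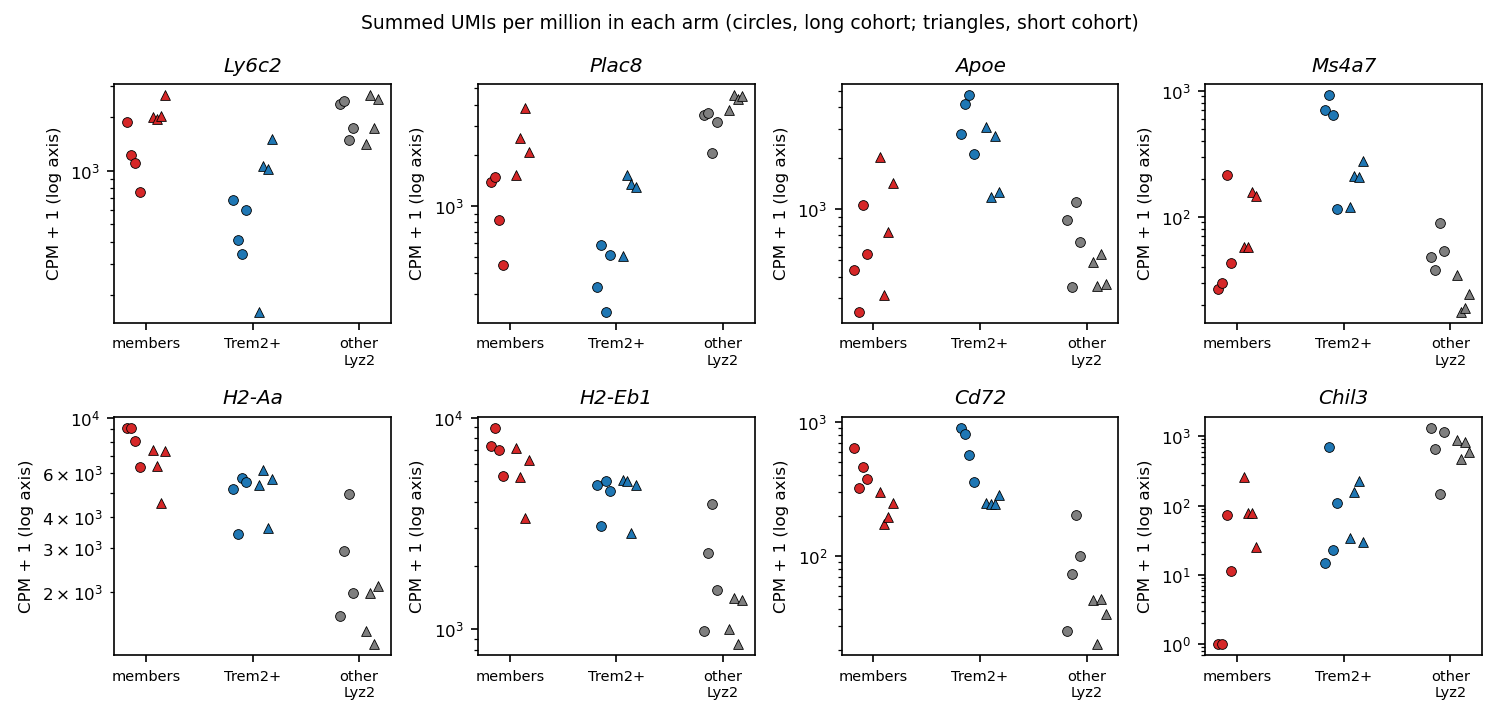
Level of 8 genes in CPM plus 1 on a log axis, 1 point per arm, in the members, the Trem2+ cells and the other Lyz2 cells, with circles for the long and triangles for the short cohort. Ly6c2 sits higher in the members than in the Trem2+ cells in all 8 arms and Plac8 in all but long anti–PD-1/anti-MIF, Ms4a7 sits lower, and H2-Aa, H2-Eb1 and Cd72 sit higher in the members than in the other Lyz2 cells of the same arm.

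Compared with the other Lyz2 cells, the members had more RNA of 8 of the 12 MHC class II genes tested and less of 12 of 14 monocyte and 4 of 4 neutrophil genes tested. With the long arms alone no class II gene was called, but that fit called only 3 of 6800 genes higher. H2-Aa, H2-Ab1 and H2-Eb1 were 3 to 4 times higher. Cd72, Klrb1b, Slamf9 and Cxcl16 were higher too, while Chil3, F13a1, Hp and Vcan were lower. Over the same 6 arms, 228 of 7894 genes tested were called higher in the members (2.89%) and 475 lower (6.02%), with a median log2 fold change of -0.002 over all genes. Most of these cells fell under the C1q limit, so the classes also differ in what goes with C1q. With the C1q-high cells that lacked Ccr2 left out, 731 genes in all were called instead of 703.

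MHC class II genes share a promoter layout in which an X box and a Y box lie a short way upstream of the start site, where the factor Ciita acts. The promoters of the class II genes called higher are shown because these genes were called higher together. RefSeq promoter sequences (GRCm38.p6) were used for 5 of the 8 genes called, and the 100 bases from 130 to 31 bases upstream of the start site are printed for the 4 that held a match. They lie at chr17:34287854-34287953 on the minus strand for H2-Aa, and on the plus strand at chr17:34305737-34305836 for H2-Eb1, chr17:34153061-34153160 for H2-DMb1 and chr17:34145119-34145218 for H2-DMb2. For H2-DMb1 and H2-DMb2 the start site used lies inside the GENCODE position of the gene. The printed window overlaps the start of that position for H2-DMb1 and lies within it for H2-DMb2. Capitals mark the core of the Y box, TGATTGG, and a sequence at the end of the X box, AACNGATG.

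H2-Aa: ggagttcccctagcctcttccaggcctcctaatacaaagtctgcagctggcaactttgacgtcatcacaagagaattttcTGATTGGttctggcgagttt
H2-Eb1: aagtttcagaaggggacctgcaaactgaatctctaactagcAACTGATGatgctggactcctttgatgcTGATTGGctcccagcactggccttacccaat
H2-DMb1: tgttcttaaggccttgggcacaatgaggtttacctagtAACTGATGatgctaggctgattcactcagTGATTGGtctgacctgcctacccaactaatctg
H2-DMb2: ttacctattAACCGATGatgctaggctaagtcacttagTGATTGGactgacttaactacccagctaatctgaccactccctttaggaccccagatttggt

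Of the 5 genes, 4 held TGATTGG and 3 held AACNGATG within 250 bases upstream, and neither of the 2 promoter entries of H2-DMa held either, and in those 3 the X box end lay upstream of the Y box. Of 32851 mouse promoters in the table, searched over the same 250 bases on both strands, 7.23% held TGATTGG and 1.98% held AACNGATG. The motifs do not overlap each other. A match describes the letters in this window and says nothing about what bound there in these cells.

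H2-Aa (chr17:34282744-34287823), the alpha chain of the I-A molecule, stood at 9130, 9122, 8093 and 6326 CPM in the long and at 7388, 6372, 4551 and 7371 CPM in the short members. In the other Lyz2 cells it stood at 1605, 2909, 4937 and 1981 CPM and at 1396, 1977, 1231 and 2103 CPM. The lowest arm of the members lay below the highest arm of the other Lyz2 cells, long anti-MIF, but within every arm the members were higher (log2 fold change 1.64, SE 0.14, adjusted p = 1.83e-08). H2-Ab1 (chr17:34257689-34269419), the beta chain, ranged from 3445 to 7385 CPM over the arms of the members and from 1030 to 3903 CPM over those of the other Lyz2 cells (log2 fold change 1.71, SE 0.15, adjusted p = 1.38e-08). H2-Eb1 (chr17:34305867-34316674), the beta chain of I-E, ranged from 3358 to 8963 CPM and from 849 to 3908 CPM (log2 fold change 1.87, SE 0.16, adjusted p = 1.38e-08).

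Cd74, the invariant chain, was the most abundant of the group. It had 21183, 24181, 22938 and 17837 CPM in the long and 17966, 16951, 11451 and 16670 CPM in the short members, against 5342, 9829, 15376 and 7066 CPM and 4159, 6012, 4217 and 6456 CPM in the other Lyz2 cells. Its log2 fold change was 1.33 (SE 0.13, adjusted p = 1.2e-07). Ciita (chr16:10480059-10528418), which encodes the factor that turns on class II genes, had 155, 217, 103 and 135 CPM in the long and 112, 96.8, 233 and 177 CPM in the short members (log2 fold change 1.42, SE 0.23, adjusted p = 9.93e-05). The genes of the peptide-loading protein H2-DM were called higher as well, H2-DMa at 0.90 (adjusted p = 6.03e-05), H2-DMb1 at 1.33 (8.56e-07) and H2-DMb2 at 1.20 (0.019). H2-DMb1 and H2-DMb2 are close copies whose reads may be divided between them. In all, 8 of 12 class II genes tested were called higher and none lower, with a median log2 fold change of 1.27. The 4 not called were H2-Oa (-0.26) and H2-Ob (0.09), subunits of the inhibitor of H2-DM, and Rfx5 (0.52) and Rfxap (-0.65), which bind the X box.

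The size of the difference in class II differed between cohorts. With the 4 short arms alone, H2-Aa had a log2 fold change of 1.86 and Cd74 one of 1.52, and 8 class II genes were called. With the 2 long arms alone, H2-Aa had 1.15 (adjusted p = 0.156) and Cd74 0.91 (adjusted p = 0.361), and none of 9 class II genes tested was called. That fit called only 3 of 6800 genes higher, against 171 of 8220 with the short arms alone. The lack of a call there is therefore no result about class II. The difference between cohorts was not tested.

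**Figure D2:**
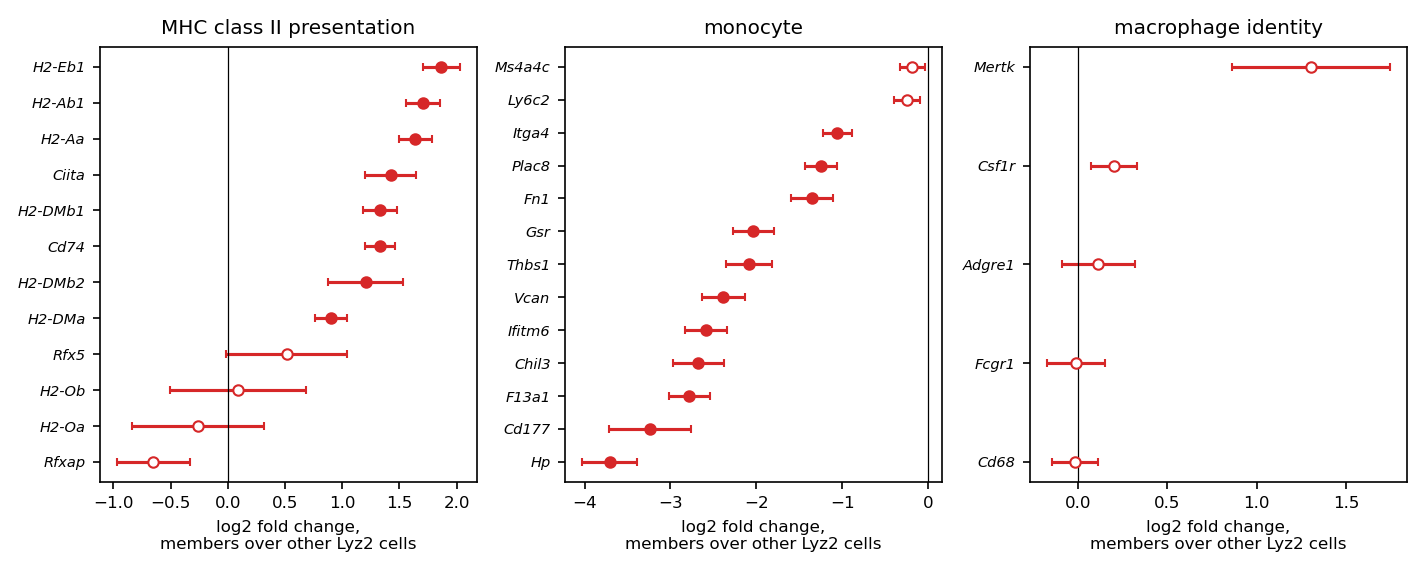
Log2 fold change of the members over the other Lyz2 cells, with the standard error as a bar, for genes of 3 lists, filled where called. The class II genes lie mostly to the right of 0, the monocyte genes to the left, and the macrophage identity genes near 0 apart from Mertk, which was not called.

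Outside class II, the genes called higher with the largest folds included Cd72, Klrb1b, Slamf9 and Cxcl16, none of which was called against the Trem2+ cells. Their log2 fold changes over the Trem2+ cells were -0.22 for Cd72 (adjusted p = 0.666), 0.61 for Klrb1b (0.224), -0.11 for Slamf9 (0.915) and -0.03 for Cxcl16 (0.985). Of 9 checkpoint ligand and costimulation genes tested against the other Lyz2 cells none was called (median -0.20). Cd72 (chr4:43446462-43454628), a lectin-like receptor better known from B cells, had 631, 319, 460 and 374 CPM in the long and 296, 171, 194 and 249 CPM in the short members. The other Lyz2 cells had 26.5, 72.3, 200 and 99.1 CPM and 45.8, 21, 47.0 and 35.8 CPM, a log2 fold change of 2.15 (SE 0.20, adjusted p = 7.05e-08). B cell genes gave at most 10 UMIs in the members of either cohort. Klrb1b (chr6:128813706-128826331), a C-type lectin receptor, had 258, 261, 117 and 145 CPM and 104, 66.5, 87.3 and 72.3 CPM in the members, and no arm of the other Lyz2 cells reached the lowest of these (highest 42.2 CPM, log2 fold change 2.54, SE 0.33, adjusted p = 7.69e-06). Cxcl16 (chr11:70453983-70459984), the ligand of Cxcr6 on T cells, ranged from 519 to 763 CPM in the members, against 106 to 571 CPM (log2 fold change 1.65, SE 0.18, adjusted p = 8.12e-07). Slamf9, a receptor of the SLAM family, had 1.81, and Arhgap22, Frmd4b, Ifitm1, Pvt1 and Rab3il1 had 1.82, 1.70, 1.67, 1.66 and 1.52. Ccl5, a T cell chemokine, had 1.40, and Mgl2, a lectin of alternatively activated macrophages, had 2.23 and was higher in 5 of 6 fitted arms.

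On the monocyte side, 12 of 14 list genes tested were called lower in the members than in the other Lyz2 cells and none higher, with a median log2 fold change of -2.23. Chil3 (chr3:106147554-106167564), a chitinase-like protein of young monocytes, was at 0, 0, 71.2 and 10.4 CPM in the long and at 256, 76.6, 77.6 and 24.1 CPM in the short members. It stood at 1336, 658, 147 and 1166 CPM and at 892, 473, 833 and 597 CPM in the other Lyz2 cells (log2 fold change -2.67, SE 0.30, adjusted p = 7.61e-07). F13a1 (-2.78), Hp (-3.71), Vcan (-2.38), Ifitm6 (-2.59), Thbs1 (-2.08) and Fn1 (-1.35) were called lower as well, as were Slpi, Ear2 and Rasgrp2 (-2.73, -2.74 and -2.61). Plac8 was lower than in the other Lyz2 cells in 6 of 6 fitted arms (-1.25, SE 0.18, adjusted p = 3.25e-05). Its level thus lay between the classes in every fitted arm but long anti–PD-1/anti-MIF. Ly6c2 was not called (-0.25, SE 0.15, adjusted p = 0.372).

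S100a8, a neutrophil and monocyte protein, was at 0 in 6 of the 8 arms of the members and at 16.0 and 8.03 CPM in the short isotype and short anti–PD-1/anti-MIF arms. In the other Lyz2 cells it ranged from 20.1 to 5381 CPM, and 5.26% of the long and 2.50% of the short other Lyz2 cells had at least 5 UMIs of S100a8 and S100a9, against none of the members. With those cells left out, 672 genes in all were called instead of 703, H2-Aa had a log2 fold change of 1.57, and F13a1 had -2.70.

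The macrophage identity genes did not follow these differences. None of the 6 was called against the other Lyz2 cells (median 0.16), and Csf1r, the receptor for the macrophage growth factor, was fitted at 0.20 on the log2 scale (adjusted p = 0.403). Aif1 (chr17:35170991-35176068) had 631, 854, 573 and 644 CPM in the long and 649, 859, 573 and 1349 CPM in the short members and was higher than in the other Lyz2 cells (log2 fold change 1.06, SE 0.15, adjusted p = 2.07e-05). Tgfbi (chr13:56609523-56639562), at 1607 to 3361 CPM, passed the p threshold but not the fold limit (0.36, SE 0.11, adjusted p = 0.0315). Of 16 interferon-stimulated genes 9 were called lower and 1 higher (median -0.57), among the lower Isg15 at -0.65 and Rsad2 at -1.69. Of 17 immediate early and heat shock genes, which also respond to tissue handling, 9 were called lower and none higher (median -0.64). Of 14 hypoxia and glycolysis genes 5 were called lower, and 2 of 5 Fc gamma receptor genes were called higher, with Fcgr4 at 0.85. Among 9 cell cycle genes tested 2 were called higher and none lower (median 1.08). Of the MIF family and its receptors, Cd74 was higher, Cd44 (-0.94, adjusted p = 1.18e-05) and Cxcr4 (-0.89, adjusted p = 0.00183) were lower, and Mif itself was not called (0.44, adjusted p = 0.0686).

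Ms4a7 stood between the classes in most arms. It was higher in the members than in the other Lyz2 cells in 5 of 6 fitted arms (1.54, SE 0.26, adjusted p = 0.000174). Ccl12 was also higher than in the other Lyz2 cells (1.02, SE 0.25, adjusted p = 0.0088), while Apoe was not called (0.62, SE 0.24, adjusted p = 0.113). These folds share the members with the comparison against the Trem2+ cells, so both sets of values rest on the same 6 arms of members.

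The members were not uniform, and several genes differed along C1q. They were set in 3 ranges of C1q, at 20 to 40, 40 to 80, and 80 or more UMIs per 10000, with 12, 30 and 26 long and 38, 40 and 20 short cells. Median depth also differed along the ranges, from 8113.5 to 12681 and 13421 UMIs in the long and from 7967 to 8295 and 9367.5 in the short cohort. Ly6c2 stood at 2106, 1204 and 750.2 CPM in the long and at 2264, 2002 and 1875 CPM in the short cohort. Plac8 went the same way, with 1270, 1072 and 568 CPM and 3149, 2111 and 2022 CPM. Ms4a7 went the other way, with 41.0, 148 and 216 CPM and 41.8, 53.4 and 221 CPM, as did Cd72, with 156, 379 and 638 CPM and 83.6, 189 and 467 CPM. H2-Aa had 5548, 8113 and 8915 CPM in the long cohort and 6205, 5778 and 8452 CPM in the short cohort, so that its order was not the same in both. Tgfbi stayed between 1938 and 3105 CPM. These sums have 1 value per cohort and range and were not tested. They pool the arms of a cohort, whose levels also differed, and the mix of arms in each range was not taken into account.

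**Figure D3:**
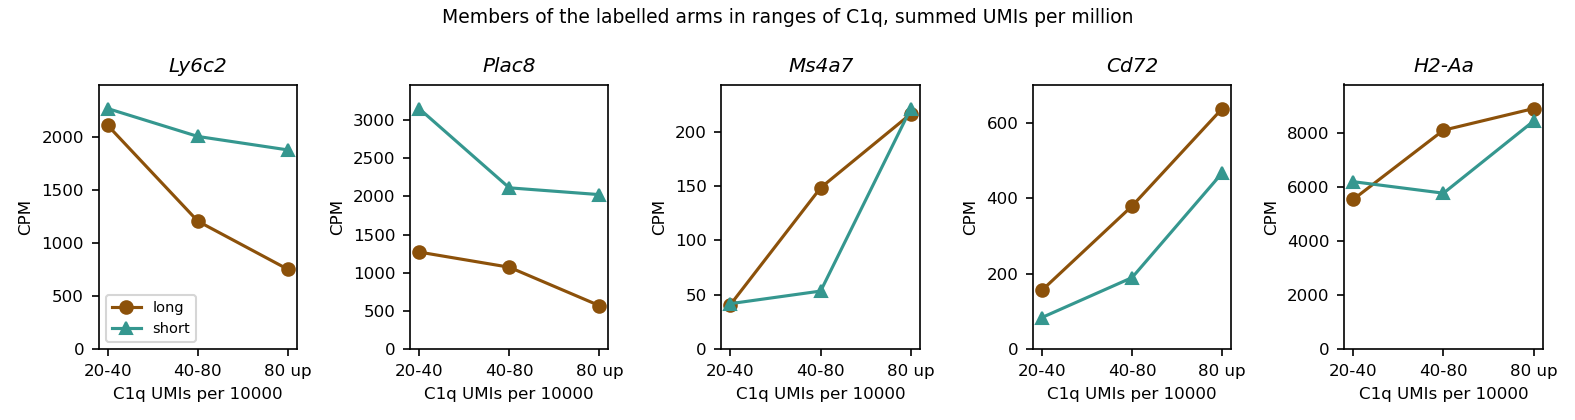
Summed level of 5 genes in CPM in the members, by range of C1q UMIs per 10000, with 1 line for each cohort. Ly6c2 and Plac8 are lower and Ms4a7 and Cd72 higher in the range of most C1q in both cohorts.

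Detection at equal depth was computed for a few genes, some of them called against the Trem2+ cells. At 3000 UMIs per cell Ms4a7 was seen in 17.6% of long and 11.6% of short members, against 55.7% and 30.1% of Trem2+ cells. Apoe was seen in 55.9% and 48.4% of the members and in 90.6% and 75.5% of the Trem2+ cells, and Pf4, a platelet-type chemokine of resident macrophages, in 1.47% and 3.16% against 28.9% and 19.6%. Ly6c2 was seen in 47.1% and 84.2% of the members and in 23.2% and 49.1% of the Trem2+ cells. H2-Aa was seen in 92.6% and 93.7% of the members, 86.9% and 90.8% of the Trem2+ cells, and 58.8% and 42.8% of the other Lyz2 cells. Cells too shallow to thin were left out, 0 long and 3 short members, 4 and 4 Trem2+ cells, and 18 and 126 other Lyz2 cells.

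The share of the members among the Lyz2-positive cells, which asks whether treatment changed how common they were, is given by arm, since 4 pairs of arms cannot pass a threshold of 0.05 in the exact test used. In the long cohort they were 12.2% of isotype cells (6 of 49, 95% exact binomial interval 4.63 to 24.8), 5.88% with anti–PD-1 (7 of 119, 2.40 to 11.7), 9.30% with anti-MIF (45 of 484, 6.86 to 12.2) and 7.35% with anti–PD-1/anti-MIF (10 of 136, 3.58 to 13.1). In the short cohort they were 2.86% with isotype (13 of 455, 1.53 to 4.84), 5.78% with anti–PD-1 (56 of 969, 4.39 to 7.44), 3.88% with anti-MIF (13 of 335, 2.08 to 6.54) and 5.99% with both (16 of 267, 3.46 to 9.55). Intervals cover counting error only. With the C1q, Trem2 and Ccr2 terms applied at 3000 UMIs, the share in the long anti-MIF arm was 15.3% (12.2 to 18.9). It was 12.5% in long isotype, so the order of that pair depended on depth. Over the 4 pairs of arms with and without anti-MIF, the mean difference was -0.06 percentage points (SD 1.99, 3 pairs of 4 higher, exact sign-flip test, two-sided, p = 1.0). Over the 4 pairs with and without anti–PD-1, it was -0.818 points (SD 4.27, higher in 2 of 4 pairs, exact p = 0.875). With anti–PD-1 the pairs of the long cohort differed by -6.36 and -1.94 points and those of the short cohort by 2.92 and 2.11 points. Leaving out the long pair with the isotype arm turned both means, to 0.902 points for anti-MIF and to 1.03 points for anti–PD-1.

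Among C1q-high cells alone, the members were 50% of long isotype cells (6 of 12, 21.1 to 78.9), 25% with anti–PD-1 (7 of 28), 15.2% with anti-MIF (45 of 296, 11.3 to 19.8) and 20.8% with both (10 of 48). In the short cohort they were 14.8% (13 of 88, 8.11 to 23.9), 40% (56 of 140, 31.8 to 48.6), 29.5% (13 of 44) and 53.3% (16 of 30). The mean difference with anti-MIF was -2.71 points (SD 23.1, higher in 2 of 4 pairs, exact p = 0.875). After adjustment over these 3 tests every p was 1.0, and the smallest p that 4 pairs allow is 0.13 when rounded. Thinned to 3000 UMIs per cell, the mean difference was -0.657 points, and the members were 25.1% of the C1q-high cells of the long anti-MIF arm. The long anti-MIF arm stood apart by its Trem2+ cells, which were 49.8% of its Lyz2-positive cells, against 12.2%, 14.3% and 27.9% in the other long arms and 4.87% to 13.8% in the short arms.

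**Figure D4:**
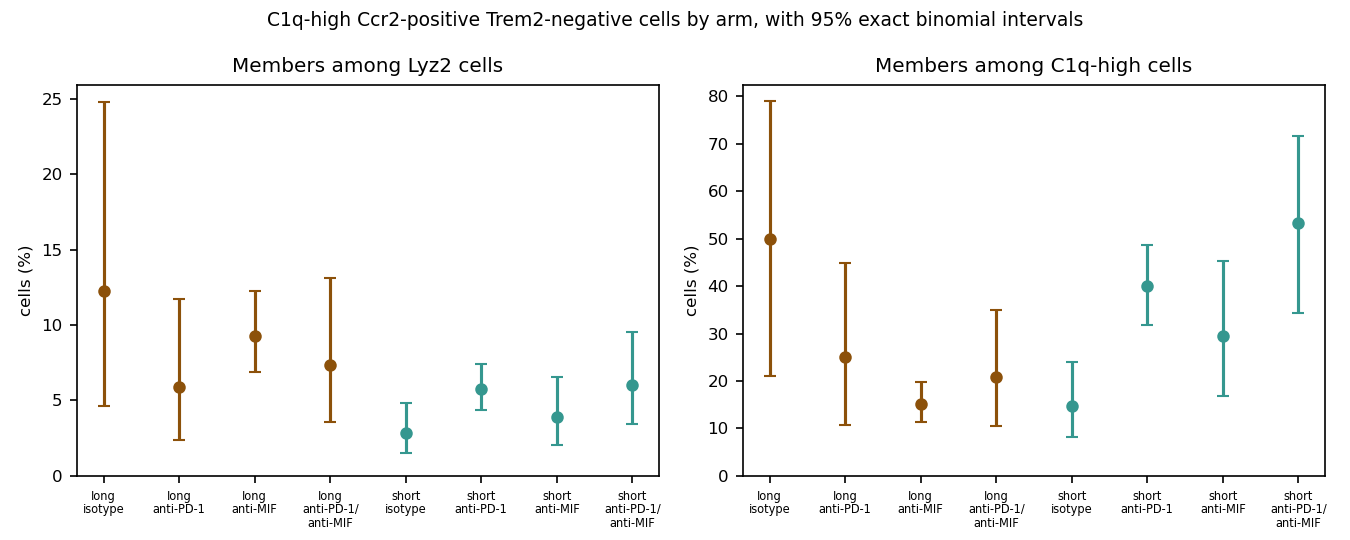
Share of the members, in percent, among Lyz2-positive cells (left) and among C1q-high cells (right) in each arm, with 95% exact binomial intervals as bars. The intervals of most arms of a cohort overlap, and the long isotype arm, with 6 members, has the widest.

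Within the members, anti-MIF and anti–PD-1 were fitted together with cohort over the 6 arms with at least 10 members. For anti-MIF, 8 of 2258 genes tested were called (0.354%), all lower in the arms with anti-MIF, and for anti–PD-1 none (0% called, 149 genes at an unadjusted p below 0.05, and 2 called by DESeq2). Both long arms in the fit had anti-MIF, so the anti-MIF contrast was set by the 4 short arms. The genes were Cxcl2, Thbs1, Fosb, Cd86, Ptgs2, Cd14, Nlrp3 and Nr4a3, which include genes of acute inflammation and of the immediate early response. Of 7 inflammatory cytokine list genes tested, Ptgs2 and Nlrp3 were called (median log2 fold change -1.48), and of 16 immediate early and heat shock genes 1 was (median -0.98), against a median of 0.019 for all genes. None of 7 class II genes was called (median -0.23).

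Cxcl2, a neutrophil chemokine, stood at 1242, 317, 116 and 0 CPM in the short members, where it came from 155, 157, 12 and 0 UMIs. Both arms with anti-MIF were lower than both without (adjusted p = 0.0285). In the long members it stood at 116, 0, 651 and 83.1 CPM, with each arm given anti-MIF above its partner without it. Cd14, the co-receptor for endotoxin, had 1458, 895, 388 and 177 CPM in the short members (log2 fold change -2.10, SE 0.33, adjusted p = 0.0418) and 90.1, 145, 673 and 613 CPM in the long members. Thbs1, a matrix protein, had 1202, 532, 272 and 120 CPM in the short members (-2.17, SE 0.29, adjusted p = 0.0285) and at most 103 CPM in any long arm. Cd86, the costimulatory ligand of CD28, had 938, 772, 243 and 185 CPM in the short members (-2.02, SE 0.28, adjusted p = 0.0285) and 361, 275, 478 and 364 CPM in the long members. Fosb, Ptgs2 and Nlrp3 had log2 fold changes of -3.12, -3.25 and -3.48 (adjusted p = 0.0285, 0.0380 and 0.0418), and Nr4a3 was at 0 in both short arms with anti-MIF.

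The long isotype and anti–PD-1 arms, with 6 and 7 members, were not in this fit. With all 8 arms in the fit no gene was called for either antibody, and none when Trem2+ cells with Ccr2 were added to the members. Leaving out single arms gave between 0 and 42 calls for anti-MIF, 0 without long anti–PD-1/anti-MIF and 2 without short isotype. With 1 sample per arm, the p-values rest on how far the 6 arms departed from an additive fit of cohort and both antibodies. No arm had a replicate.

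**Figure D5:**
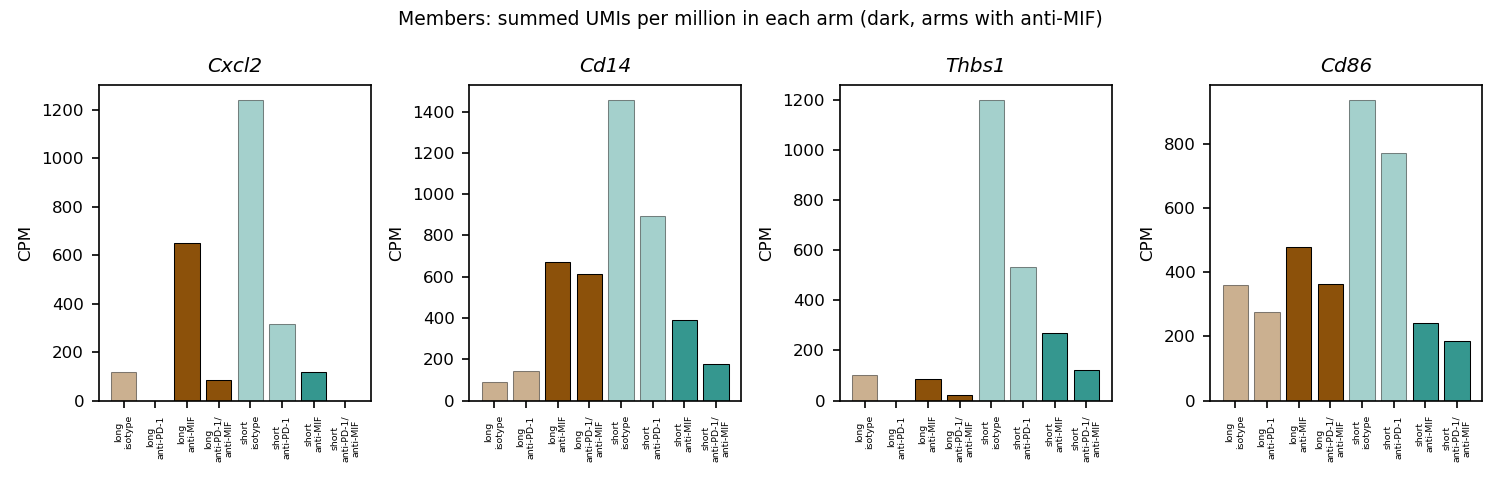
Level of Cxcl2, Cd14, Thbs1 and Cd86 in the members of each arm in CPM, with arms that had anti-MIF in the darker shade. In the short cohort both anti-MIF arms lie below both arms without it for all 4 genes, and in the long cohort they do not.

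Between cohorts there was 1 library each, so no test was made. Pooled over arms, the long members had less Plac8 (891 against 2474 CPM), Ly6c2 (1147 against 2074 CPM), Thbs1 (73.3 against 539 CPM) and Cxcr4 (58.9 against 198 CPM) than the short members. They had more Cd72 (454 against 204 CPM), Klrb1b (145 against 75.4 CPM), C1qa (2443 against 1250 CPM) and Cd74 (22288 against 16391 CPM). Each of these differences had the same direction in all 4 arms. The pools differed in their mix of arms, with 45 of 68 long members from anti-MIF and 56 of 98 short members from anti–PD-1. In matched arms the log2 difference of Plac8 ran from -0.13 (isotype) to -2.21 (combination). That of Ly6c2 ran from -0.09 (isotype) to -1.79 (combination). Thbs1, Plac8, Ly6c2, Cxcr4, Cd72, Klrb1b and C1qa were picked out for their size after their values were seen. Days of treatment, day of isolation, depth and library all differ between the cohorts and cannot be told apart.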

How the data were processed

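Single-cell 5′ RNA and hashtag UMI counts were deposited by the authors as raw count matrices, 1 library per cohort. Per the labels' processing notes and the methods, Cell Ranger 7.1.0 and mm10 were used, and Seurat 5.1.0 and DESeq2 downstream in R 4.3.2; the annotation release was not given in the sources used here. Cells with 200 to 5000 genes, at most 5% mitochondrial UMIs and a top hashtag at least 3 times the second were kept. That step removes doublets between arms only; no doublet caller was run. The members and gene lists were chosen with earlier results of these data known.

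The UMI sums of each arm and class were tested by quasi-likelihood in edgeR 4.0.16 (R 4.3.3), with TMM scaling, filterByExpr, the arm as a block and Benjamini-Hochberg adjustment over all genes tested. The 9 genes of the rule stayed in library sizes and left the tests. Levels are CPM of the summed UMIs. DESeq2 1.42.0, no filter on low counts, other limits, single cohorts and left-out arms were alternatives, and the edgeR steps were tested on simulated data. Shares were compared with an exact sign-flip test (scipy 1.17.1). Genes were named by a rule: up to 12 called genes per direction with the largest fold, at least 50 CPM and 1 direction in every arm, besides genes of the lists at 50 CPM. Genes named outside it, which include Tspan13, Ly6i, Clec4e, Pf4, Mgl2, the less abundant class II genes H2-Oa, H2-Ob, H2-DMb2, Rfx5 and Rfxap and the list genes at 0 or few UMIs, were chosen after their values were seen or to account for a list. Gene positions are GENCODE vM21 on GRCm38, matched by identifier. The depth of 8758 and 5909.5 UMIs per cell limits what a count of 0 in 1 cell can show. Some genes of the lists are not reported here.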

Additional observations from a re-analysis of the deposited data

Results flagged for a closer look

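The share of the members among C1q-high cells moved in opposite directions with anti-MIF in the cohorts, by -34.8 and -4.17 percentage points in the long pairs and by 14.8 and 13.3 points in the short pairs, and the difference between cohorts was not tested. The share among Lyz2-positive cells moved by -6.36 and -1.94 points with anti–PD-1 in the long pairs and by 2.92 and 2.11 points in the short pairs, which was not tested either. The long isotype and anti–PD-1 arms behind the long pairs held 6 and 7 members.

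For 4 genes of the members every pair of the long cohort moved one way with anti-MIF and every pair of the short cohort the other way, on the log2(CPM + 10) scale and untested. The mean difference of Cxcl2 was 2.81 in the long and -4.17 in the short cohort. Fosb had 2.78 and -2.84, Cd14 had 2.39 and -2.08, and Cd86 had 0.39 and -1.96.

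The hashtag named anti-PD1-MIF-DDT, which no test used, also held members. In the short cohort they were 3.46% of its Lyz2-positive cells (25 of 722, 95% exact binomial interval 2.25 to 5.07), against 2.86% in the isotype, 5.78% in the anti–PD-1, 3.88% in the anti-MIF and 5.99% in the anti–PD-1/anti-MIF arm. They were 40.3% of its C1q-high cells (25 of 62, 28.1 to 53.6), against 14.8%, 40%, 29.5% and 53.3% in those arms.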

How the results depend on the processing

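Against the Trem2+ cells, 28 genes were called. The count was 80 with no filter on low counts, 13 with DESeq2, 0 with no arm block, 61 and 2 with the long and short cohort alone, 0 with a top hashtag at 10 times the second, 10 and 55 with C1q at 40 and 10 per 10000, 14 in cells of 4000 to 15000 UMIs, 45 with the 5th hashtag, 44 with at least 2 Trem2 UMIs in the comparator, and 0 to 42 when 1 arm was left out (17 without short anti–PD-1). Against the other Lyz2 cells, 703 genes were called, and 392 with no arm block, 49 with the long cohort alone, 367 with the stricter hashtag limit, 466 with C1q at 40 and 480 to 644 when 1 arm was left out. For anti-MIF the count went from 8 to 42 with no filter, to 0 with all 8 arms (an alternative chosen after seeing the data), to 0 with Ccr2-positive C1q-high cells whatever their Trem2, and to 0 to 42 when 1 arm was left out. For anti–PD-1 it went from 0 to 16 with no filter, to 2 with DESeq2 and to 0 to 20 when 1 arm was left out. None of the 28, 36 and 8 genes checked by name changed direction, and of their 510, 678 and 80 values under the alternatives 291, 647 and 50 were still called. Many of these genes were chosen for 1 direction in every arm, and the alternatives share arms with the main fit. Their steady direction was thus partly set by the choice. The causes of these changes were not tested.

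The mean share difference for anti-MIF among Lyz2-positive cells turned from -0.06 to 0.706 points with C1q at 10 per 10000, to 1.57 when thinned to 3000 UMIs, and ranged from -0.570 to 0.902 when 1 pair was left out. Among C1q-high cells it ranged from -8.54 to 7.98 when 1 pair was left out. For anti–PD-1 it turned from -0.818 to 0.345 with C1q at 10 per 10000 and ranged from -2.07 to 1.03. In each case the highest value came without the long pair with the isotype arm. The stricter hashtag limit left no Lyz2-positive cell in the long isotype arm, so the shares had no value there, and a fit with at least 20 members per arm could not be made.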

Other observations

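In the long cohort the hashtag named anti-PD1-MIF-DDT held 17 members, 7.87% of its Lyz2-positive cells (95% exact binomial interval 4.65 to 12.3) and 45.9% of its C1q-high cells (29.5 to 63.1). In the short cohort its 25 members had 1629 CPM of Cd14 and 967 CPM of Thbs1. Both levels lay above those of the short members with anti-MIF alone or combined (388 and 177 CPM of Cd14, 272 and 120 CPM of Thbs1). The short isotype and anti–PD-1 members had 1458 and 895 CPM of Cd14 and 1202 and 532 CPM of Thbs1.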
